A study of Homo sapiens with 4 samples.

Results

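SEMA5A, FREM1 and MPDZ are 3 protein-coding genes whose products act where cells meet other cells or the matrix around them. They are 3 rows of the 78724 in a table of ribosome footprint counts from A375, an established human melanoma line. The rows were selected on the measured difference between the media, since all 3 were already known to be lower without arginine, so their own values are given as a description with no test. The cells had spent 48 h either in control medium or in a medium made with every amino acid except L-arginine, and 2 libraries were deposited for each. The labels list no genetic change or other agent, and all 4 libraries carry the same cell line label. They do not say whether the 2 libraries of a medium are separate cultures, so the spread between libraries may be technical.

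A footprint is the piece of mRNA that a ribosome shields from nuclease, and its count rises with both the amount of an mRNA and the number of ribosomes on it. No total RNA was analysed here, so these parts cannot be told apart, nor can fewer cells with the mRNA be told from less of it per cell. SEMA5A is a transmembrane semaphorin with thrombospondin repeats. Semaphorins are guidance proteins that attract or repel growing axons and migrating cells, mostly through plexin receptors. FREM1 is a secreted protein of the basement membrane, the sheet of matrix under epithelia, where it forms a complex with FRAS1 and FREM2 that holds the skin to the tissue below. MPDZ, also called MUPP1, is a scaffold with many PDZ domains that gathers membrane proteins at tight junctions, the seals between neighbouring epithelial cells. Its close relative PATJ has a similar role in cell polarity.

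The rows were placed by the coordinates that the table itself gives, which match GRCh38. The SEMA5A row (ENSG00000112902.12) spans chr5:9035033-9546075, the FREM1 row (ENSG00000164946.20) chr9:14737152-14910428 and the MPDZ row (ENSG00000107186.17) chr9:13105707-13279692. All 3 lie on the minus strand. The counts cover exons only, of which the rows hold 11973, 7705 and 7924 bases in 25, 38 and 48 separate blocks. The reads were placed on GRCh37 by the submitters' notes, so a row can be read as its gene only where the builds lie close together. SEMA5A lies in a stretch of chromosome 5 from SDHA to HMGCS1, and the other 2 in a stretch of chromosome 9 from VLDLR to VCP, where an earlier analysis of these data found reads on neighbouring broadly used genes. Of 129 protein-coding rows in the first stretch 34.9% held no read, and of 130 in the second 35.4%, against 72.6% of 17946 outside these stretches and a similar one on chromosome 19. The stretches were found through reads in these same data, so a smaller share inside them was largely set in advance and is a description. FREM1 and MPDZ lie between VLDLR and RPS6, a segment that joined its stretch only through VLDLR, and there 21.7% of 46 protein-coding rows held no read. The median exon block is 156 bases long in SEMA5A, 177 in FREM1 and 124 in MPDZ, so even a shift shorter than an exon could leave part of a gene's reads out of its row. The size of the shift at these places was not measured.

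The sequences just upstream of the 3 genes are shown because the rows were lower together and each row's highest coordinate, its 5′ end on the minus strand, coincides with a RefSeq start. Each is the 250 bases before that start, from RefSeq on GRCh38.p14, minus strand, written 5′ to 3′. They lie at chr5:9546076-9546325 for SEMA5A, chr9:14910429-14910678 for FREM1 and chr9:13279693-13279942 for MPDZ. Capitals mark matches on either strand to any of 6 motifs. These are the GC box GGGCGG, the CCAAT box, the box of TATA promoters TATAAA, the symmetric E-box CACGTG, the E-box form CATGTG that the melanocyte factor MITF also reads, and the core TGATGNAA of the element that ATF4 reads when amino acids are short.
SEMA5A: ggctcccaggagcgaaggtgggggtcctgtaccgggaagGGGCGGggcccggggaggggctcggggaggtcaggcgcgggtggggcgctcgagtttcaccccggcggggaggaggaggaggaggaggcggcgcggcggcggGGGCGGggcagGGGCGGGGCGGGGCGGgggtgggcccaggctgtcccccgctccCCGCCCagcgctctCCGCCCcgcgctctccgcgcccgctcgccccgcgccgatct
FREM1: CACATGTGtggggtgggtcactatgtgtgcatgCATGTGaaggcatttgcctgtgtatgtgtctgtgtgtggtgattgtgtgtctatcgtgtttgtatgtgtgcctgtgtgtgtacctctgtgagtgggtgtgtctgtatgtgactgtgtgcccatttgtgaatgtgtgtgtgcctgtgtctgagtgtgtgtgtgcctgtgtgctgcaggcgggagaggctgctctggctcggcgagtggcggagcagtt
MPDZ: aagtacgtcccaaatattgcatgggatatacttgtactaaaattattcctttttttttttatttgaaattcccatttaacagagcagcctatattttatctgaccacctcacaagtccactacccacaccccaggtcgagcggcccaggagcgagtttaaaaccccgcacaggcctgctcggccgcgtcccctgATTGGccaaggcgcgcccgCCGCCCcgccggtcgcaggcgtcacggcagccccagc
The upstream sequences had little in common. That of SEMA5A is 82% G and C with 33 CG pairs, and 98.3% of 35116 RefSeq promoters of the same length have a lower G and C content. It holds 7 matches to GGGCGG, a motif found in 42.6% of those promoters, and some of these matches share bases with the next. The FREM1 sequence is 53.6% G and C with 5 CG pairs, runs largely in GT repeats, and holds 3 matches to CATGTG, of which a pair overlaps. CATGTG occurs in 9.42% of promoters. MPDZ has 54% G and C with 17 CG pairs, 1 match to the GC box and 1 to CCAAT, which 32% of promoters hold. None of the 3 sequences holds TATAAA, found in 10.7% of promoters, the E-box CACGTG, found in 6.34%, or the ATF4 core TGATGNAA, found in 3.14%. A match is a description of these letters, and RefSeq lists 3 starts for FREM1, of which the one at the end of the row was used.

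Total counts ranged from 105004 to 217989 in the control libraries and from 192006 to 234766 in the arginine-free ones. Levels are given as CPM, that is, counts divided by each library's tested total times its TMM normalization factor and put on a common scale. Where a row holds no read, up to 3 counts are still compatible with it, or 13 CPM in the deepest library and 28.3 CPM in the shallowest. The melanocytic markers in the stretches were checked against the cell line label. TYRP1 had 16 and 25 control reads and 1 and 0 without arginine, MLANA had 6 and 10 against 0 and 2, and SLC45A2 had 0 and 2 against none. In control medium TYRP1 stood at 140 ± 16 CPM (SD, n = 2). The endothelial gene TEK had 2 and 1 control reads and none without arginine, and the T cell gene IL7R had no control read and 0 and 1 without arginine. Their part in the results was not tested.

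The guidance gene SEMA5A had 30 and 49 reads in the control libraries against 6 and 4 without arginine. As levels these were 283 and 251 CPM against 26 and 25.1 CPM. Both control libraries were high, both arginine-free libraries were low, and the groups did not overlap. A row chosen for being lower is likely to separate in this way, here and for FREM1 and MPDZ. The share of all tested rows that do so was not computed, so the separation is a description. The means were 267 ± 22.2 and 25.6 ± 0.608 CPM (SD, n = 2 each). The fitted log2 fold change was -3.33 (SE 0.39), or 10.1-fold lower. With DESeq2 it was -3.29 with a larger SE of 0.76, so the stated precision depends on the method. The 4 ratios of a control to an arginine-free library ran from 9.67 to 11.3. By total counts the row was 10.4-fold lower, with an exact 95% interval from 5.39 to 22.6 that covers counting error only. The small SD between the arginine-free libraries rests on 10 reads in all.

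The basement membrane gene FREM1 had 26 and 38 control reads and 6 and 8 without arginine, or 245 and 195 CPM against 26 and 50.2 CPM. The arginine-free libraries were again both below the control libraries. They lay 1.93-fold apart, with replicate 2 the higher. The mean went from 220 ± 35.5 to 38.1 ± 17.2 CPM (SD, n = 2 each), and the fit gave a log2 fold change of -2.55 (SE 0.41), 5.86-fold lower. DESeq2 gave -2.47 with a larger SE of 0.75. Ratios of single libraries ran from 3.88 to 9.43. By total counts the row was 6.04-fold lower (exact 95% counting interval 3.35 to 11.7).

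The junction scaffold MPDZ was the best covered of the 3, with 191 reads. The control libraries held 42 and 85 of them and the arginine-free libraries 26 and 38, or 396 and 436 CPM against 113 and 239 CPM. The control libraries were nearly level, while arginine-free replicate 2 was 2.12-fold above replicate 1, so the groups stayed apart by a smaller margin than for the other 2 genes. The mean went from 416 ± 28.4 to 176 ± 89.2 CPM (SD, n = 2 each), which the fit gave as -1.29 on the log2 scale (SE 0.33), 2.45-fold lower. Ratios of single libraries ran from 1.66 to 3.87, and by total counts the row was 2.62-fold lower (exact 95% counting interval 1.93 to 3.6). Without arginine-free replicate 1 the log2 fold change was -0.77, and without replicate 2 it was -1.84. DESeq2 gave -1.18 with a larger SE of 0.52 and did not place MPDZ past the threshold.

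**Figure D1:**
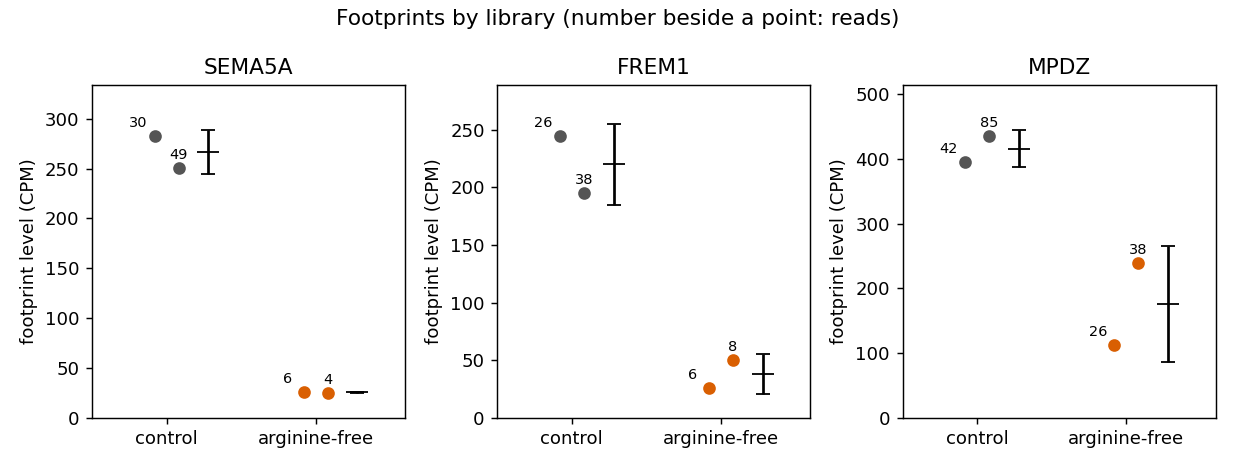
Footprint level in CPM (vertical axis, from 0) of SEMA5A, FREM1 and MPDZ in each control (grey) and arginine-free (orange) library, with the number of reads beside each point and the mean ± SD (n = 2) as a black bar. For every gene both arginine-free points lie below both control points, which choosing rows for being lower favours. The MPDZ points at 113 and 239 CPM are the widest apart without arginine.

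Together the 3 rows took 0.0933% of the counts in control replicate 1 (95% Wilson interval 0.0766 to 0.114) and 0.0789% in replicate 2 (0.068 to 0.0916). In arginine-free medium they took 0.0162% (0.0118 to 0.0222) and 0.026% (0.0198 to 0.0343). The intervals cover counting error only, and since the rows were chosen for being lower without arginine, the gap between the media is a description.

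Per kilobase of exon, the scale needed to set levels between genes, the MPDZ row was highest in control medium at 52.5 ± 3.58 CPM per kb, followed by FREM1 at 28.5 ± 4.6 and SEMA5A at 22.3 ± 1.86 (SD, n = 2 each). MPDZ stood above the others by more than the spread. FREM1, at 31.8 and 25.3 CPM per kb, and SEMA5A, at 23.6 and 21.0, did not overlap but came within 2 SD of the wider group. Without arginine the means were 22.2 ± 11.3 for MPDZ, 4.95 ± 2.23 for FREM1 and 2.13 ± 0.0508 CPM per kb for SEMA5A. Both gaps lay within 2 SD of the wider group, though the genes were measured in the same libraries. In replicate 1 MPDZ had 14.2 CPM per kb, FREM1 3.37 and SEMA5A 2.17, and in replicate 2 they had 30.1, 6.52 and 2.1. MPDZ was thus well above the others in each library. The values of FREM1 and SEMA5A rest on 14 and 10 reads, so the order between them is not firm. Exon length counts untranslated parts too, where few ribosomes sit, so these levels understate the density over the coding part by an amount that can differ between genes. The share of a gene's reads that its row holds is also unknown where the builds differ, so the order and ranks are those of the rows and need not be those of the genes.

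Among 159 tested protein-coding rows in the stretches on chromosomes 5, 9 and 19, the control level per kb of MPDZ ranked 73rd from the top, FREM1 106th and SEMA5A 125th. In arginine-free medium they ranked 112th, 152nd and 158th. The median row had 45.1 CPM per kb in control medium and 44.9 without arginine, so only MPDZ stood above the median, and only in control medium.

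The background for these values is a table in which many rows moved. Of 2526 tested rows, 16.9% were called lower and 16.0% higher without arginine, by edgeR's quasi-likelihood fit at a Benjamini-Hochberg adjusted p under 0.05. Among the 159 protein-coding rows of the stretches, 15.1% were lower and 15.1% higher. All 3 members were among the lower rows, which is how they came to be chosen and is no evidence of its own. The median log2 fold change of the 159 rows was -0.03, and SEMA5A was the 3rd lowest among them, FREM1 the 6th and MPDZ the 19th.

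**Figure D2:**
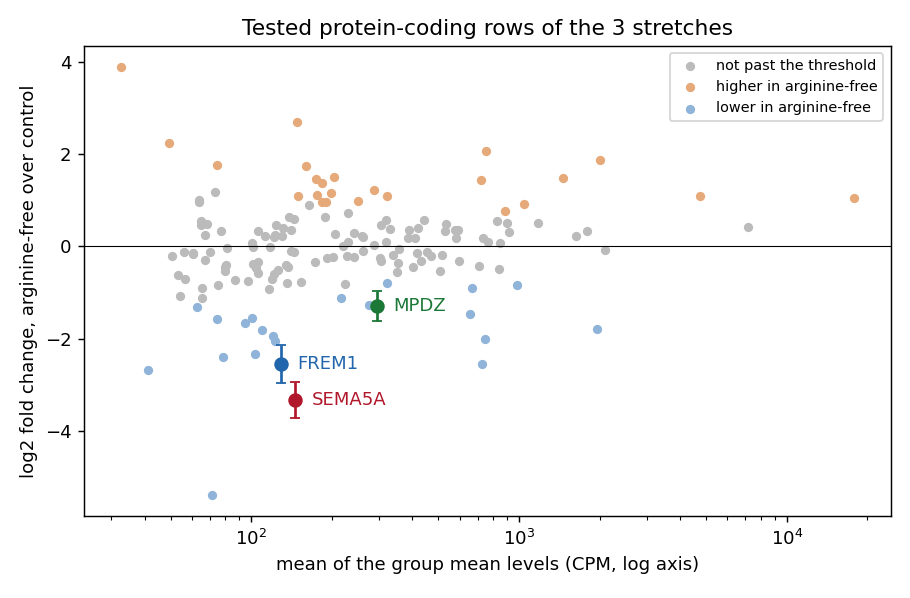
Log2 fold change of arginine-free over control (vertical axis) against the mean of the 2 group levels in CPM (horizontal, log axis) for the 159 tested protein-coding rows of the stretches, with rows past the threshold in orange and blue. SEMA5A (-3.33), FREM1 (-2.55) and MPDZ (-1.29) are drawn with their SE, and lie in the lower part of a cloud centred near 0.

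The 3 rows share a length that the choice did not use. Their exons sum to 7705 bases or more, against a median of 3940 in the 159 rows. This length merges all annotated exons of a gene, so it can exceed that of any single transcript. Each row itself included, 5 of the 159 rows are as long as SEMA5A or longer, 23 as long as MPDZ and 25 as long as FREM1. The 3 rows are also split into many blocks. With each row again included, 2 of 159 rows have as many as MPDZ or more, 7 as many as FREM1 and 22 as many as SEMA5A. Long rows went both ways in these stretches. Of the 22 other tested rows at least as long as FREM1, 3 were lower and 4 were higher, beside 15.1% in each direction of all 159 rows, and their median log2 fold change was -0.22. The lower ones were the motor protein MYO10 (-1.47, SE 0.22), the transcription factor BNC2 (-2.05, SE 0.39) and the centriole protein CNTLN (-1.31, SE 0.48). The call for CNTLN ended under 10 of 12 alternatives, each single library left out among them, and that for BNC2 with DESeq2. The higher ones were RPL37, VLDLR, ZDHHC21 and NFIB, and the calls for ZDHHC21 and NFIB ended with DESeq2 and without control replicate 2 (log2 fold change then 1.52 and 0.87), that for ZDHHC21 also without arginine-free replicate 1 (1.89). Across the 156 rows other than the members, the Spearman correlation of log2 fold change with exon length was -0.12, a description over genes that share the same libraries.

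Of the rows next to the members, ATPSCKMT and LURAP1L were not tested. Among the tested ones none was called lower and a pair was called higher, beside 16.9% lower and 16.0% higher of all tested rows. So few rows cannot be set against those shares. Beyond the 3′ end of FREM1, at 43.7 kb, lies the gene of the protein palmitoyltransferase ZDHHC21. Its reads rose from 3 and 2 in control medium to 22 and 10 without arginine (log2 fold change 2.23, SE 0.64, edgeR adjusted p = 0.0159). On the other side of FREM1, at 512 kb, SNAPC3, a subunit of the complex that starts transcription of small nuclear RNA genes, had 31 and 50 against 65 and 35 reads (log2 fold change -0.10, SE 0.28, edgeR adjusted p = 0.806). MPDZ lies 802 kb from the transcription factor gene NFIB, which rose from 16 and 20 to 63 and 43 reads (log2 fold change 1.15, SE 0.32, edgeR adjusted p = 0.0143). On the other side LURAP1L had 2 and 1 against 11 and 7 reads, too few to be tested. SEMA5A stands alone, with ATPSCKMT at 679 kb, not tested at 2 and 7 against 7 and 4 reads, and the mitochondrial RNA-binding protein gene FASTKD3 at 1170 kb, with 9 and 12 against 8 and 14 (log2 fold change -0.29, SE 0.53, edgeR adjusted p = 0.71). These rows were taken by place, as the nearest on each side with at least 20 reads. Without control replicate 2 the calls ended for ZDHHC21 (log2 fold change 1.52, edgeR adjusted p = 0.234) and NFIB (0.87, adjusted p = 0.208). ZDHHC21 also did not pass without arginine-free replicate 1 (1.89, adjusted p = 0.232), and DESeq2 called neither gene (adjusted p = 0.251 and 0.182).

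Other rows share bases with the members, and reads were counted without strand, so a gene and its antisense partner cannot be told apart. SEMA5A is overlapped by 8 rows, of which 7 held no read, the antisense RNA SEMA5A-AS1 among them. The eighth, ENSG00000250786.5 on the plus strand (chr5:9545647-9552150), overlaps the first 429 bases of SEMA5A and had 1 and 7 control reads and 4 and 7 without arginine. It was not tested, and so few reads cannot show whether its level changed as that of SEMA5A did. FREM1 is overlapped by 3 rows and MPDZ by 1, all of them without a read.

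The rest of the guidance, matrix and junction genes were hardly measured. The 3 lists, which were drawn up with earlier results of these data known, hold 392 other genes, of which 373 matched a row and 17 of those lie in the stretches. Of the 17, 7 had no read and 1 had enough reads to be tested, so the lists say little about the pathways. No list gene was past the threshold in either direction (edgeR, with none at an unadjusted p under 0.05, and none with DESeq2). With a single gene tested, the 16.9% of rows lower over the table gives no scale for that count. Outside the stretches 252 of 356 rows held no read, and rows there were not read as genes.

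Among the guidance genes, TRIO, which acts below the netrin receptor DCC, was the gene tested. It lies in the same stretch as SEMA5A (chr5:14143342-14510204) and had 18 and 25 control reads against 22 and 15 without arginine. Its level went from 149 ± 29.3 to 94.7 ± 0.751 CPM (SD, n = 2 each), and the log2 fold change of -0.61 (SE 0.35) did not pass (edgeR adjusted p = 0.203). The ephrin EFNA2 had 1 read in all and the adhesion phosphatase PTPRD none. LINGO2 had 6 reads over the 4 libraries, LINGO3 had 3 and APC2 had 12.

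Of the matrix genes, EGFLAM, or pikachurin, which binds dystroglycan, had 0 and 2 control reads and 7 and 3 without arginine. ADAMTSL5, a secreted relative of the ADAMTS proteases, had 3 and 6 against 3 and 2. The proteases ADAMTS16 and ADAMTS12 had 1 read and none. Among the junction genes, the tight junction protein TJP3, the delta-catenin CTNND2 and the cadherins CDH9, CDH10 and CDH12 had no read, and CDH6 and CDH18 had 1 each, in control replicate 1. MPDZ was thus the only junction gene of its list in the stretches with more than 1 read.

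The profile of each member over the 4 libraries was set beside those of the 156 other tested protein-coding rows in the stretches. Likeness was the Euclidean distance between log2 CPM values centred on each row's own mean, so it measures mainly shape. The prior count of 2 shrinks the changes of rows with few reads, so the number of reads also enters it. The 3 members lay 0.85 (SEMA5A and FREM1), 1.05 (FREM1 and MPDZ) and 1.8 (SEMA5A and MPDZ) apart. Nearest to SEMA5A were TYRP1, an enzyme of melanin synthesis, at 0.64, the growth hormone receptor GHR at 0.66 and the chromatin protein HMG20B at 0.67. TYRP1, with 1 and 0 reads without arginine, had a fitted log2 fold change of -5.39 against -3.33 for SEMA5A, so its nearness partly reflects that shrinkage. GHR had nearly the same counts as SEMA5A, at 29 and 51 control reads and 8 and 2 without arginine.

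FREM1 had closer neighbours in shape. HMG20B lay at 0.29, with 138 and 229 control reads and 36 and 43 without arginine, the ATP synthase subunit gene ATP5F1D at 0.33 with 145 and 199 against 56 and 57, and the interleukin 11 receptor IL11RA at 0.4 with 8 and 13 against 1 and 3. Nearest to MPDZ were the intramembrane protease SPPL2B at 0.23, with 15 and 28 reads against 6 and 11, the adaptor STAP2 at 0.56 and the cholesterol synthesis enzyme HMGCS1 at 0.58. For FREM1, MPDZ and all of these 6 nearest rows, arginine-free replicate 2 lay above replicate 1, while SEMA5A was level between the 2 libraries. The nearest rows were picked for likeness over these same libraries, so that they share this shape is no separate result. With 4 libraries a close distance is a weak likeness, and the distances share the same libraries and depths.

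**Figure D3:**
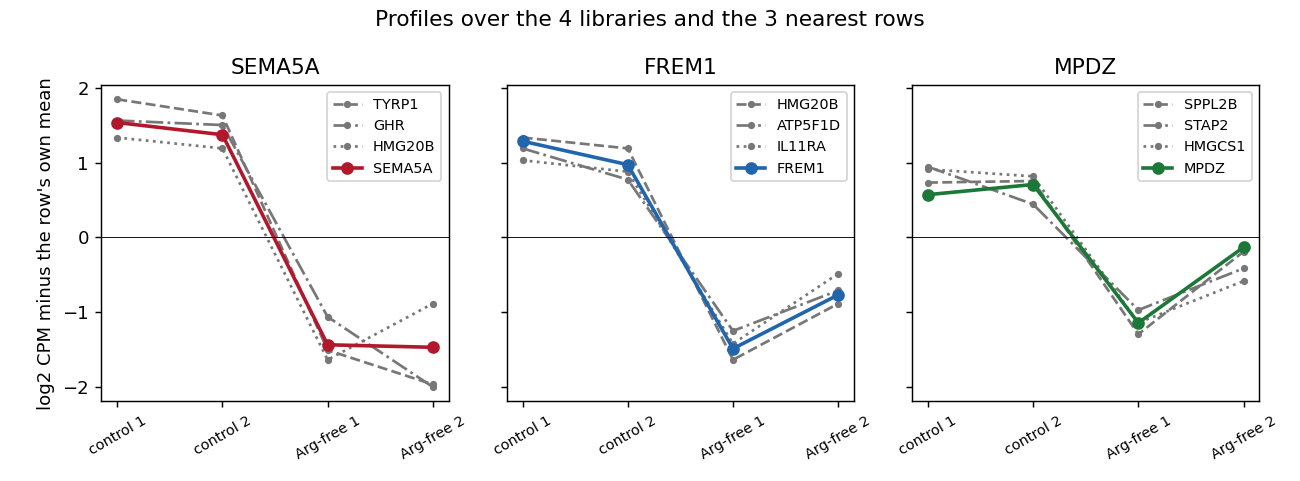
Log2 CPM minus the row's own mean (vertical axis) in the 4 libraries (horizontal axis) for SEMA5A, FREM1 and MPDZ (coloured) and the 3 rows nearest to each (grey). Arginine-free replicate 2 is above replicate 1 for FREM1 and MPDZ and their nearest rows, which were picked for such likeness, and level with it for SEMA5A.

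**Figure D4:**
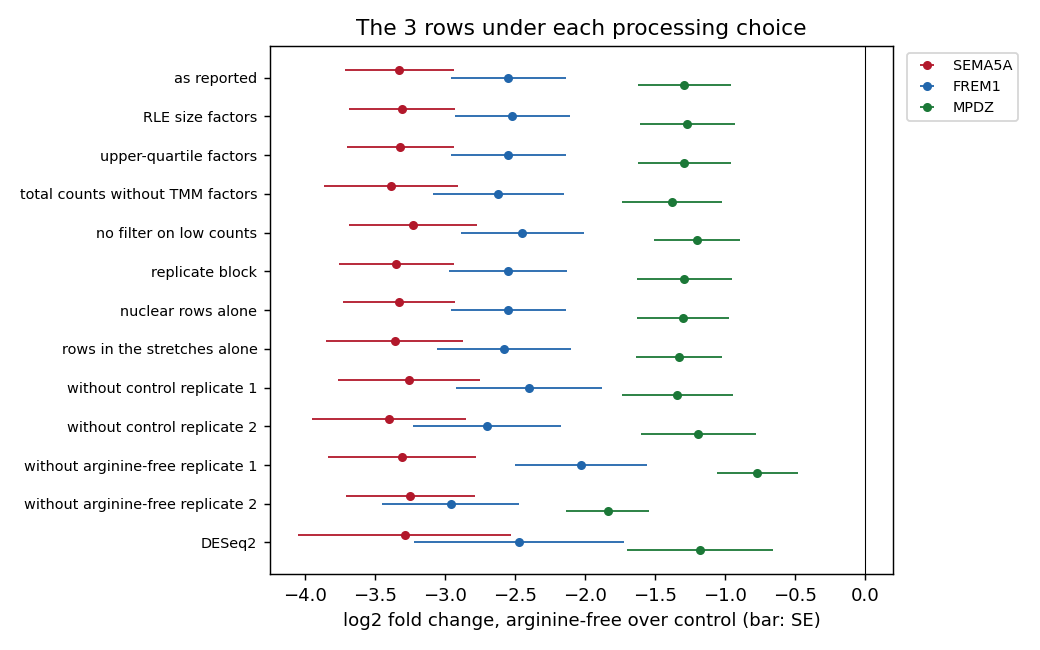
Log2 fold change with its SE (horizontal axis) of the 3 rows as reported and under 12 other processing choices (vertical axis). SEMA5A stays between -3.40 and -3.23, FREM1 between -2.96 and -2.03 and MPDZ between -1.84 and -0.77, and no value reaches 0.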

How the data were processed

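Ribosome footprints were measured in 4 libraries of A375 cells, grouped and numbered by their titles. The authors deposited raw counts per gene, from featureCounts 2.0.1 over GENCODE 47 basic exons with no strand setting and an option for paired reads, per the file headers. Earlier steps, per the submitters' processing notes, used cutadapt, Bowtie2 2.5.2 and TopHat2 with GRCh37 or hg19. The table carries no symbols, so rows were named by place against RefSeq (GRCh38.p14), by reciprocal best overlap (intersection over union of 0.5 or more with a shared end, otherwise 0.75). This named 38563 rows. Rows passing filterByExpr were fitted with edgeR 4.0.16 (R 4.3.3), TMM factors and quasi-likelihood tests at a Benjamini-Hochberg adjusted p of 0.05. SE was derived as the size of the log2 change divided by the root of F. For each member it was smaller than the SE given by DESeq2. Profiles used a prior count of 2. DESeq2 1.42.0 was an alternative. The test was checked on simulated data. Tables were handled with Python 3.11.15, pandas 2.3.3 and matplotlib 3.10.9.

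The members, stretches and gene lists were chosen with earlier results of these data known. Named genes are the members, list genes in the stretches that passed, up to 6 tested ones that did not, the 3 nearest profiles, the nearest rows on each side with 20 or more reads, overlapping rows with a read and melanocytic markers. The list genes with too few reads for a test, the long rows, TEK and IL7R were named beyond that rule after their values were seen. The planned arginine content of the member proteins was not analysed here. The 95% intervals and the floor of 3 counts cover counting error only, since amplified fragments without molecular identifiers are not independent molecules.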

Additional observations from a re-analysis of the deposited data

How the results depend on the processing

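The directions of SEMA5A, FREM1 and MPDZ held under all 12 alternatives that gave a value. The rows were chosen for being lower, and each control library lay above each arginine-free library, so this was largely set in advance. Under a stricter filter (50 counts or more throughout a group) none of the 3 was tested. The cause of the other shifts was not tested. Leaving out 1 library in turn gave log2 fold changes from -3.40 to -3.25 for SEMA5A, from -2.96 to -2.03 for FREM1 and from -1.84 to -0.77 for MPDZ, with both ends for FREM1 and MPDZ set by the arginine-free libraries. Without a filter on low counts SEMA5A stood at -3.23.

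Over the table, 405 rows were higher and 428 lower. With the stricter filter these were 138 and 146, with rows of the stretches alone 27 and 28, and with DESeq2 162 and 147. The first pair tested fewer rows by construction, as did the second. Leave-one-out fits gave 270 to 418 higher and 243 to 389 lower, with 243 lower without control replicate 2. No list gene was called in any setting. Same-numbered libraries showed no shared deviation from their group means (correlation -0.0528). This is a single value, which cannot show whether those libraries were prepared as pairs. With the replicate block SEMA5A, FREM1 and MPDZ stood at -3.35, -2.55 and -1.29, with 354 rows higher and 372 lower. Depth limits FREM1 and SEMA5A most, with 14 and 10 reads in arginine-free medium.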
